A study of Mus musculus with 38 samples.

Results

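Interferon gamma GTPases and signalling genes are described here in mouse tail skin. The set is 9 genes taken by their symbols: Irf1, Gbp2, Gbp3, Gbp5, Gbp7, Igtp, Irgm1, Irgm2 and Socs1. The count table held 8 of the 9 among 19218 genes used, and Gbp5 was not analysed here. All 8 passed the filter on low counts in every comparison. In the table they carry the Ensembl identifiers ENSMUSG00000018899 (Irf1), ENSMUSG00000028270 (Gbp2), ENSMUSG00000028268 (Gbp3), ENSMUSG00000040253 (Gbp7), ENSMUSG00000078853 (Igtp), ENSMUSG00000046879 (Irgm1), ENSMUSG00000069874 (Irgm2) and ENSMUSG00000038037 (Socs1).

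The study sequenced bulk messenger RNA of tail skin in 38 libraries of 6 groups. The vitiligo ABX group (6 libraries) had vitiligo induction and was treated with ABX, which the study used to deplete gut microbes, and the vitiligo group (9 libraries) had the induction alone. The no induction ABX group (6 libraries) was wild type mice treated with ABX. The hippuric acid group (5 libraries) was wild type mice injected intraperitoneally with hippuric acid, a metabolite that the study describes as derived from gut microbes, and the vehicle group (3 libraries) was wild type mice injected with the vehicle. The no induction group (9 libraries) was wild type mice without any of these treatments. No label gives the genotype of the induced mice, the way vitiligo was induced, or any strain, sex, age, dose or duration. Whether each library stands for its own mouse is not stated either, and p-values therefore describe the spread of these libraries, which may be technical in part.

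Interferon gamma binds a receptor of IFNGR1 and IFNGR2 chains, which activates the kinases JAK1 and JAK2. The signal acts at gamma activated sites (GAS) in promoters and raises IRF1, a transcription factor that binds interferon stimulated response elements (ISRE), an element that the type I interferon pathway uses as well. Among the strongest targets are the guanylate binding proteins (Gbp genes) and the immunity related GTPases (Igtp, Irgm1 and Irgm2), enzymes that gather on the membranes around intracellular pathogens, while SOCS1 binds the JAK kinases and dampens the signal. In vitiligo, interferon gamma from CD8 T cells acts on keratinocytes, which release chemokines such as CXCL9 and CXCL10 that draw further T cells to the skin.

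The stretch before the transcription start was read for each member from RefSeq (GRCm38.p6), since the motifs named above act there. All 8 members matched by symbol. For Gbp7 and Irgm2 the sequence at the start used was found in none of their GENCODE M21 transcripts (0 of 2 and 0 of 3). The distances of their motifs from a start are therefore less certain. An ISRE-type motif, GAAANNGAAA on either strand, lay within 250 bases before a start in 7 of the 8 members, every one except Irf1, and in 2.98% of 32851 start windows of all genes. A GAS-type motif, TTCNNNGAA, which reads the same on both strands, lay there in 4 of the 8 (Gbp7, Igtp, Irf1 and Irgm2), and in 7.02% of the same windows. Members were counted per gene, with a match at any start, while the shares are per start window (32851 windows of 27025 genes). The ISRE-type matches of Gbp3, Irgm1 and Socs1 were 2 overlapping matches each. The 120 bases before the start are shown for the 3 Gbp genes, whose effect of ABX differed with induction in the test given below. They are also shown for Irgm2, which holds both motifs side by side, and for Irf1, which holds the GAS-type motif alone. They are shown last for Socs1, the member least correlated with the others. They are read 5′ to 3′ on the strand of the gene, with motif matches in capitals, at chr3:142620543-142620662 (plus strand) for Gbp2, chr3:142559924-142560043 (plus) for Gbp3, chr3:142530216-142530335 (plus) for Gbp7, chr11:58214857-58214976 (plus) for Irgm2, chr11:53769894-53770013 (plus) for Irf1 and chr16:10785537-10785656 (minus) for Socs1.
Gbp2: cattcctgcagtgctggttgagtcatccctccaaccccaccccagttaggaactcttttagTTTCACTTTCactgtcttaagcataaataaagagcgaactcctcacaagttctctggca
Gbp3: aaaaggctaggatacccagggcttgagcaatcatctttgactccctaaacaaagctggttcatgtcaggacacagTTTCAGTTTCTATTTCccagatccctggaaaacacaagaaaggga
Gbp7: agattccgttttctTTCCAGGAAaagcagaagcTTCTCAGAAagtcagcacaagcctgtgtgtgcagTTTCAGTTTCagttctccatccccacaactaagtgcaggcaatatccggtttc
Irgm2: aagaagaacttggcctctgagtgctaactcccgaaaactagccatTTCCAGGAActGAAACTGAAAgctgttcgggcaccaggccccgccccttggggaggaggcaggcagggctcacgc
Irf1: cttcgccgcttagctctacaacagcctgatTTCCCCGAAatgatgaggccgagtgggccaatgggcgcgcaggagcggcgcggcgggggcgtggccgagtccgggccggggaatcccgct
Socs1: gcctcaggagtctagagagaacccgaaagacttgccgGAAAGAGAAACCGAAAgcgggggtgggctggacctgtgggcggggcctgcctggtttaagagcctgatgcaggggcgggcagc
Irf1 and Gbp3 each had a second RefSeq start, whose window held neither motif. A match of letters is a description of the sequence and not of binding, and the absence of a match says only that these letters are not in the window.

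**Figure D1:**
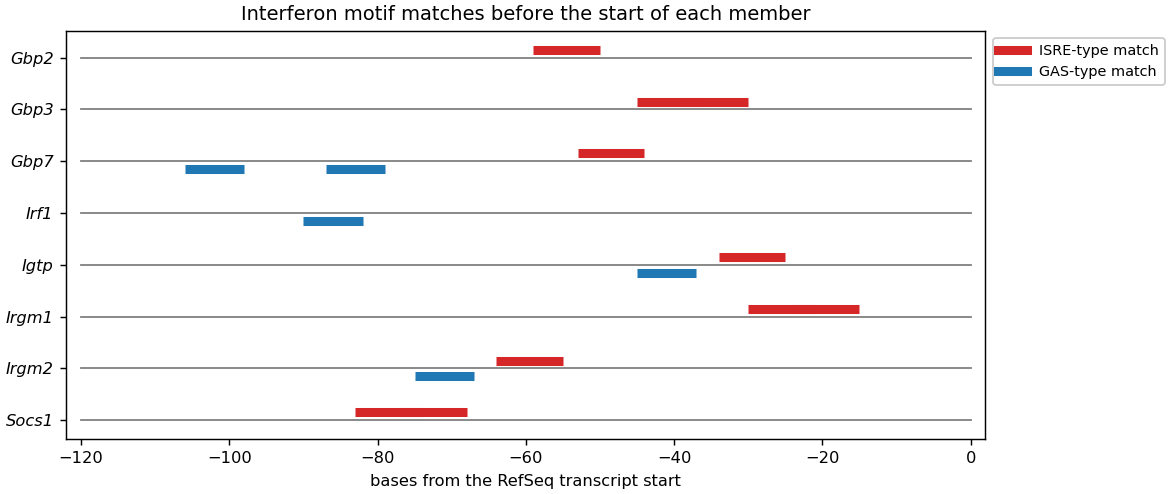
Position of ISRE-type (red, above the line) and GAS-type (blue, below the line) motif matches in the 120 bases before the RefSeq start of each member. The x axis is the distance in bases from the start; the red matches begin 24 to 83 bases before it and the blue matches 45 to 106.

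Library totals ran from 15.3 to 27.9 M counts. Levels are CPM, counts scaled to a common library size with TMM factors, with the SD over libraries, and a gene was called changed when its adjusted p in the quasi-likelihood test of edgeR lay under 0.05 over all genes tested. Markers of skin were present in every group, with all 7 keratinocyte, all 6 fibroblast and all 6 melanocyte markers above 0. Summed markers of gut epithelium passed 20 CPM in 3 libraries (vitiligo 260 at 38.4, no induction 011 at 29.6 and no induction 012 at 20.8 CPM), against 4.64 to 14.3 CPM in the other vitiligo libraries and 4.93 to 9.3 CPM in the other no induction libraries. In bulk tissue, fewer cells of a type and less RNA per cell cannot be told apart.

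Per kilobase of annotated exon, Gbp2 had the highest mean level of the 8 members in every group and Socs1 the lowest. Gbp2 averaged 9.35 CPM per kb in vitiligo ABX, 12.9 in vitiligo, 11.5 in no induction ABX, 12 in hippuric acid, 7.06 in vehicle and 5.98 in no induction skin. Socs1 averaged 1.35 to 1.94 CPM per kb over the 6 groups. The highest group mean was that of hippuric acid skin for 6 members (Gbp3, Gbp7, Igtp, Irgm1, Irgm2 and Socs1), of vitiligo skin for Gbp2 and of vitiligo ABX skin for Irf1, and the lowest was that of no induction skin for all members but Irf1, which was lowest in vehicle skin. In this order of means, the ranges of every pair of neighbouring groups overlapped for every member.

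**Figure D2:**
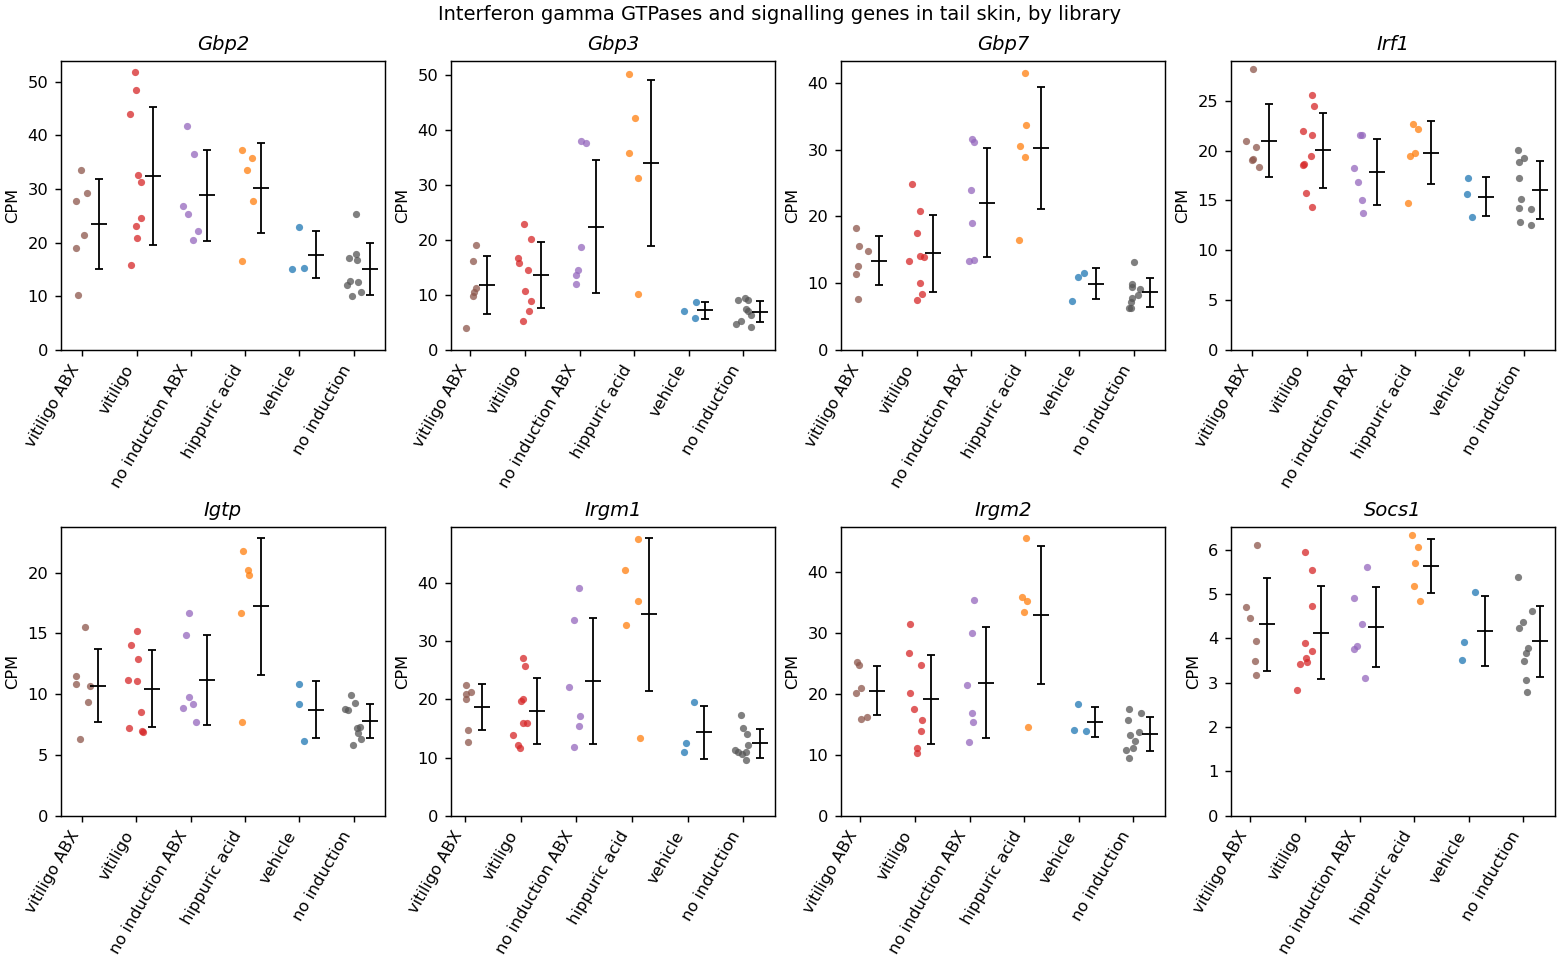
Level of each member in CPM (y axis, from 0) in every library, by group on the x axis; points are libraries and the bars beside them the mean ± SD. For Gbp3 and Gbp7 all 5 hippuric acid points lie above all vehicle points and all 6 no induction ABX points above all no induction points, while for Irf1 and Socs1 the groups overlap in each of the 6 pairs compared.

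The first question of the study was how skin with induced vitiligo differs from uninduced skin. Gbp2, Gbp3, Gbp7 and Irgm1 rose in vitiligo skin, by 1.47- to 2.2-fold, which is 4 of 8 members, against 5.27% of all genes called higher (7.74% in either direction). Irf1, Igtp, Irgm2 and Socs1 were not called, with fold values of 1.27, 1.36, 1.45 and 1.06. The median log2 fold change of the 8 members was 0.54, against 0.01 over all genes tested.

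Gbp2, a guanylate binding protein that coats vacuoles of intracellular parasites, had 15.9, 31.3 and 51.8 CPM (lowest, median and highest) in the 9 vitiligo libraries, against 10.1, 12.8 and 25.4 CPM in the 9 no induction libraries. All 9 vitiligo libraries were above the no induction mean and 5 of them above the highest no induction library, so the groups overlapped. The mean was 32.5 ± 12.9 CPM in vitiligo and 15 ± 4.81 CPM in no induction skin (SD, n = 9 each; log2 fold change 1.14 ± 0.22 SE, edgeR adjusted p = 0.00312). Gbp3, a relative encoded on the same chromosome, had 5.27, 14.6 and 23 CPM in vitiligo libraries, against 4.15, 7.05 and 9.42 CPM in no induction libraries. Here 6 of 9 vitiligo libraries lay above every no induction library. Its log2 fold change was 1.00 ± 0.25 (edgeR adjusted p = 0.0172).

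Gbp7, which in mouse macrophages takes part in assembling the NADPH oxidase, had 7.43, 13.9 and 24.9 CPM in vitiligo libraries, against 6.22, 8.26 and 13.2 CPM in no induction libraries (log2 fold change 0.78 ± 0.21, edgeR adjusted p = 0.0281). Irgm1, a regulator of the other immunity related GTPases, had 11.7, 15.9 and 27.2 CPM in vitiligo libraries, against 9.60, 11.3 and 17.3 CPM in no induction libraries (0.56 ± 0.17, edgeR adjusted p = 0.0428). In both genes the high vitiligo libraries were the same ones that were high for Gbp2, namely 000, 039 and 047, and the low ones were 001 and 062. Irf1, with 14.3, 19.5 and 25.6 CPM in vitiligo libraries against 12.5, 15.1 and 20.1 CPM in no induction libraries, did not pass (0.35 ± 0.12, edgeR adjusted p = 0.0815). Igtp (0.45 ± 0.17, adjusted p = 0.0951) and Irgm2 (0.53 ± 0.20, adjusted p = 0.0911) missed the threshold as well, and Socs1 (0.09 ± 0.16, adjusted p = 0.770) ranged over 2.84 to 5.94 CPM among vitiligo libraries, against 2.79 to 5.39 CPM among no induction libraries.

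Upstream of these genes, the receptor chain Ifngr1 rose to 83.9 ± 17.3 CPM in vitiligo skin, against 59.6 ± 12.1 CPM in no induction skin (log2 fold change 0.52 ± 0.14, edgeR adjusted p = 0.0303). The other receptor chain, Ifngr2, and the kinases Jak1 and Jak2 were not called. Transcripts of Ifng stayed under the filter, with at most 0.273 CPM in a vitiligo library and at most 0.122 CPM in a no induction library. Of 10 other genes known to be induced by interferon gamma, 5 rose and 0 fell, among them the T cell attracting chemokine Cxcl9 (4.13 ± 3.45 CPM in vitiligo and 0.718 ± 0.588 CPM in no induction skin, log2 fold change 2.55 ± 0.47) and the immunoproteasome subunit Psmb8 (0.87 ± 0.19). Of 12 genes known mainly for the type I response, 8 rose, among them Oas1a (1.41 ± 0.37) and Usp18 (1.15 ± 0.30), so this list moved in the same direction. Neither Gbp4 nor Gbp9 and none of 7 other immunity related and very large GTPases was called, with Iigp1 the nearest (0.81 ± 0.27, edgeR adjusted p = 0.0685). Of 8 transcription regulators of the pathway other than Irf1, Irf8 and Nlrc5 rose in vitiligo skin. The same 2 fell in vitiligo ABX against vitiligo skin, Stat2 rose and Nlrc5 fell in no induction ABX skin, and none was called in the other comparisons or for the interaction. Of 8 signal inhibitors other than Socs1 none was called in vitiligo skin, while Socs2 rose and Cish and Ptpn11 fell in no induction ABX skin. In no induction ABX skin 31.1% of all genes were called in either direction. The calls among regulators and inhibitors there are therefore not read as a result about these lists.

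By summed level, T and NK cell markers and macrophage markers mostly moved with the members among the vitiligo libraries, and dendritic cell markers did not. The summed level of 15 T and NK cell markers was 13.7, 27.5 and 31.6 CPM (lowest, median, highest) in vitiligo libraries, against 12.8, 14.2 and 20 CPM in no induction libraries, with no marker at 0 throughout either group and 2 of 8 tested markers (Cd69 and Itgae) called higher. The 3 vitiligo libraries lowest for this sum, 001, 062 and 063 at 13.7, 16 and 17.5 CPM, were also the lowest 3 for the summed level of the members, at 80.8, 87.4 and 97.9 CPM. Dendritic cell markers summed to 80.7 to 123 CPM in vitiligo libraries, against 71.4 to 129 CPM in no induction libraries, with 2 of 7 called higher (Itgax and Cd207). Of the 7 markers, 6 had positive log2 fold changes (median of the 7 0.66), so the sum does not stand for every marker. Their sum was highest in vitiligo 062 and 001, at 123 and 114 CPM, and stood at 95, 87.4 and 80.7 CPM in vitiligo 000, 039 and 047. Macrophage markers summed to 487 to 2820 CPM among vitiligo libraries, against 634 to 2050 CPM among no induction libraries. All 12 had positive log2 fold changes (median 0.53), with 0 of 12 called. Their sum was lowest in vitiligo 001, at 487 CPM, and highest in vitiligo 000, 039 and 047, at 2380, 2170 and 2820 CPM. Vitiligo 260 departed from this, at 1090 CPM with 137 CPM for the members. All 7 adipocyte markers rose, at 1610 to 4950 CPM in sum against 401 to 1190 CPM. Melanocyte markers, the check on the disease model, summed to 10.9 to 109 CPM in vitiligo libraries, against 86.9 to 136 CPM in no induction libraries, with 4 of 6 called lower. The part of these cell types in the change of the members was not tested.

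The calls in vitiligo skin depended on single libraries. Without no induction 002, 022 or 023 or vitiligo 000, 039 or 047, 2 members were called, and without vitiligo 001, 7 were called. Gbp7 lost its call without any 1 of these first 6 libraries (edgeR adjusted p up to 0.0619) and Irgm1 without any 1 of 12 (up to 0.0942), and without the 3 libraries with gut transcripts Gbp2 alone was called. The log2 fold changes without those 3 libraries were 1.10 for Gbp2, 0.95 for Gbp3, 0.78 for Gbp7 and 0.51 for Irgm1, close to those with all libraries (1.14, 1.00, 0.78 and 0.56).

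ABX treatment of mice without induction asks what the treatment itself does to uninduced skin. In no induction ABX skin 6 of the 8 members rose (Gbp2, Gbp3, Gbp7, Igtp, Irgm1 and Irgm2), against 15.4% of all genes called higher (31.1% in either direction). The 6 called are all the GTPases of the set, while Irf1 (log2 fold change 0.17 ± 0.13, edgeR adjusted p = 0.345) and Socs1 (0.12 ± 0.16, adjusted p = 0.593) were not called. The median log2 fold change of the members was 0.81, against 0.00 over all genes tested.

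Gbp3 had 12, 16.6 and 38 CPM (lowest, median and highest) in the 6 no induction ABX libraries, against 4.15, 7.05 and 9.42 CPM in the 9 no induction libraries. Every ABX library lay above every library without ABX, which held for 2.69% of all genes tested. The log2 fold change was 1.70 ± 0.27 (3.26-fold, edgeR adjusted p = 0.000286). Gbp7 had 13.3, 21.5 and 31.6 CPM in no induction ABX libraries, against 6.22, 8.26 and 13.2 CPM in no induction libraries (1.37 ± 0.21, edgeR adjusted p = 0.000184), and its groups did not overlap either. Gbp2 had 20.5, 26.0 and 41.8 CPM in no induction ABX libraries, against 10.1, 12.8 and 25.4 CPM in no induction libraries (0.95 ± 0.20, edgeR adjusted p = 0.00183). Its groups overlapped because no induction 005, at 25.4 CPM, lay above 3 of the ABX libraries.

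Among the immunity related GTPases, Irgm1 had 11.9, 19.6 and 39.1 CPM in no induction ABX libraries, against 9.60, 11.3 and 17.3 CPM in no induction libraries (0.91 ± 0.22, edgeR adjusted p = 0.00521). Irgm2, which with Irgm1 guards host membranes against other immunity related GTPases in mice, had 12.1, 19.2 and 35.4 CPM against 9.50, 13.2 and 17.5 CPM (0.72 ± 0.20, edgeR adjusted p = 0.0136). Igtp, also called Irgm3, had 7.68, 9.47 and 16.7 CPM against 5.81, 7.28 and 9.92 CPM (0.53 ± 0.17, edgeR adjusted p = 0.0262). In all 3 genes, ABX libraries 002 and 004 stood highest and the lowest ABX library, 003, lay within the no induction range. The same 2 libraries had summed levels of the 12 type I interferon genes of 360 and 281 CPM, against 63.5 to 102 CPM in the other 4 ABX libraries and 31.3 to 59.8 CPM in no induction libraries.

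The kinase Jak2 rose to 66.5 ± 6.82 CPM in no induction ABX skin, against 45.0 ± 4.91 CPM in no induction skin (log2 fold change 0.57 ± 0.08, edgeR adjusted p = 0.000103), with every ABX library above every library without ABX. Ifng was at 0 counts in all 6 ABX libraries, and with 3 counts as the limit that a count of 0 allows this leaves room for up to 0.164 CPM in a library, counting error only. Ifngr1 (0.31 ± 0.12, adjusted p = 0.0609) was not called. Further GTPases rose as well: both other Gbp genes tested, Gbp9 (0.66 ± 0.16) and Gbp4 (0.77 ± 0.23), and 4 of 7 in the group of immunity related and very large GTPases, namely Gvin1 (1.26 ± 0.32), Iigp1 (1.18 ± 0.30), Ifi47 (0.74 ± 0.23) and Gvin2 (0.84 ± 0.31). All 12 type I genes rose, among them Ifit2 (1.54 ± 0.28), a protein that binds viral and cellular RNA. Of 9 other genes induced by interferon gamma 2 rose, the immune checkpoint ligand Cd274 (0.51 ± 0.14) and the nitric oxide synthase Nos2 (0.86 ± 0.25). Nlrc5, the transactivator of MHC class I genes, fell by 0.42 on the log2 scale (SE 0.16, edgeR adjusted p = 0.0467).

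Summed T and NK cell markers were at 16.1 to 21.1 CPM in no induction ABX and 12.8 to 20 CPM in no induction libraries, with 1 of 7 tested markers called higher, and macrophage markers at 1040 to 1630 and 634 to 2050 CPM, with 2 of 12 called higher. All 7 adipocyte markers fell, to 240 to 463 CPM in sum in no induction ABX libraries against 401 to 1190 CPM in no induction libraries, and the part of the tissue's make-up in the change of the members was not tested. Without ABX libraries 002 and 004 together, left out after their high levels were seen, 3 members were called (Gbp2, Gbp3 and Gbp7, with log2 fold changes of 0.67, 1.10 and 1.03), and Igtp lost its call without either one of them (edgeR adjusted p up to 0.0940).

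ABX was also given to mice with induced vitiligo. None of the 8 members was called between vitiligo ABX and vitiligo skin, where 13.1% of all genes were called. None of the 8 had an unadjusted p under 0.05 in edgeR and DESeq2 called 0 as well. The median log2 fold change of the members was 0.05, against 0.02 over all genes tested. Gbp2 had 10.2, 24.6 and 33.6 CPM in vitiligo ABX libraries, against 15.9, 31.3 and 51.8 CPM in vitiligo libraries (-0.46 ± 0.27, edgeR adjusted p = 0.273). Gbp3 had 4.03, 10.9 and 19.1 CPM in vitiligo ABX libraries, against 5.27, 14.6 and 23 CPM in vitiligo libraries (-0.20 ± 0.32, adjusted p = 0.716). The ranges overlapped for both genes, and the other 6 members had log2 fold changes between -0.11 and 0.11.

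In the same comparison 3 of 11 other genes induced by interferon gamma and 2 of 8 transcription regulators were called lower and none higher, against 8.05% of all genes called lower. None of 7 other immunity related and very large GTPases, neither of the other Gbp genes tested and none of the 8 signal inhibitors was called. B2m, the light chain of MHC class I, fell to 266 ± 55.6 CPM in vitiligo ABX skin, against 516 ± 185 CPM in vitiligo skin (-0.95 ± 0.22, edgeR adjusted p = 0.00902). Psmb8 (-0.69 ± 0.21), Psmb10 (-0.60 ± 0.14), Nlrc5 (-1.18 ± 0.25) and Irf8, a myeloid transcription factor (-0.78 ± 0.25), fell too. The 2 calls among 10 T and NK cell markers tested, Cd3g and Cd2, were lower, with a summed level of 14.5 to 19.1 CPM in vitiligo ABX libraries, against 13.7 to 31.6 CPM in vitiligo libraries. None of 12 macrophage markers was called, and all 12 had negative log2 fold changes (median -0.32), with sums of 925 to 1600 CPM in vitiligo ABX libraries, against 487 to 2820 CPM in vitiligo libraries. All 7 adipocyte markers fell, to 267 to 691 CPM in sum in vitiligo ABX libraries against 1610 to 4950 CPM in vitiligo libraries, with a median log2 fold change of -3.86. Of 6 melanocyte markers 4 rose (98.3 to 219 CPM in sum against 10.9 to 109 CPM in vitiligo libraries), and of 7 keratinocyte markers Krt10 and Krt2 fell and Dsg3 rose. The part of these cell types in the change of these genes was not tested. All 12 type I genes stayed uncalled. Whether the members differed from the antigen presentation genes in their response was not tested.

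With ABX in both groups, vitiligo ABX and no induction ABX skin did not differ by the test in any member, where 4.97% of all genes were called. Gbp7 and Gbp3 had the smallest unadjusted p-values of the members, 0.0137 and 0.0352, and these 2 were under 0.05, while DESeq2 called Gbp7 (adjusted p = 0.0435). Gbp7 had 7.61, 13.6 and 18.2 CPM in vitiligo ABX libraries, against 13.3, 21.5 and 31.6 CPM in no induction ABX libraries (-0.71 ± 0.25, edgeR adjusted p = 0.122). Gbp3 had 4.03, 10.9 and 19.1 CPM in vitiligo ABX libraries, against 12, 16.6 and 38 CPM in no induction ABX libraries (-0.91 ± 0.39, adjusted p = 0.202). For both genes all 6 vitiligo ABX libraries lay below the no induction ABX mean, and the ranges overlapped.

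The test of the difference between these effects used the 30 libraries of the 4 groups. It asks whether the log2 fold change with ABX was the same in induced and in uninduced mice. Gbp2 (-1.43 ± 0.36, edgeR adjusted p = 0.0101), Gbp3 (-1.92 ± 0.45, adjusted p = 0.00675) and Gbp7 (-1.50 ± 0.34, adjusted p = 0.00556) had a lower effect of ABX with induction than without, which is 3 of 8 members called lower, against 4.77% of all genes (11.5% in either direction). Set side by side, the effect of ABX was -0.46 with induction and 0.95 without for Gbp2, -0.20 and 1.70 for Gbp3, and -0.11 and 1.37 for Gbp7. Irgm1 (-0.87 ± 0.31, adjusted p = 0.0632), Irgm2 (-0.62 ± 0.32, adjusted p = 0.207), Igtp (-0.50 ± 0.28, adjusted p = 0.249), Irf1 (-0.11 ± 0.19, adjusted p = 0.760) and Socs1 (-0.06 ± 0.25, adjusted p = 0.901) were not called.

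Of the genes around the members, Jak2 (-0.50 ± 0.16, edgeR adjusted p = 0.0369) and Iigp1, an immunity related GTPase that attacks parasite vacuoles in mice (-1.32 ± 0.44, adjusted p = 0.0473), had a lower effect with induction as well. So did 8 of 12 type I genes, among them Irf7 (-1.98 ± 0.56), the main transcription factor of that response, and 4 of 11 other genes induced by interferon gamma (B2m, Psmb8, Psmb10 and Tap2). In the other direction, the phosphatase Ptpn11, 1 of 8 signal inhibitors, had a higher effect of ABX with induction than without (0.42 ± 0.13, adjusted p = 0.0316). Without no induction ABX 002 and 004 together, Gbp7 alone was called (-1.16, edgeR adjusted p = 0.0442), with -1.14 for Gbp2 (adjusted p = 0.0659) and -1.32 for Gbp3 (adjusted p = 0.0647).

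**Figure D3:**
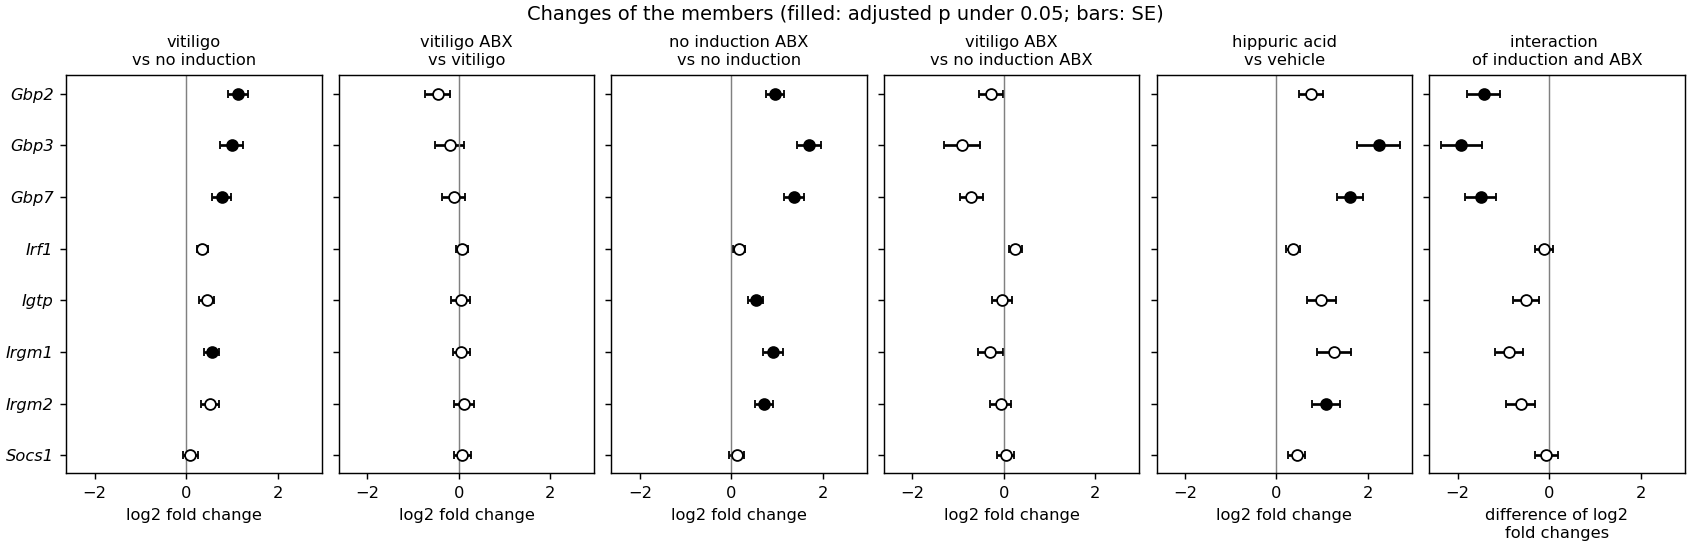
Log2 fold change of each member (x axis) with its SE (bars) in 5 comparisons, and in the last panel the difference of the ABX effect with induction minus without; filled points have an edgeR adjusted p under 0.05. Filled points are the 4 in vitiligo, the 6 in no induction ABX and the 3 in hippuric acid skin to the right of 0, and the 3 Gbp genes to the left of 0 in the last panel.

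Hippuric acid was injected into wild type mice to ask what its elevation alone does to skin. Gbp3, Gbp7 and Irgm2 rose in hippuric acid skin, by 4.72-, 3.05- and 2.13-fold, which is 3 of 8 members, against 5.48% of all genes called higher (13.8% in either direction). The other 5 members had log2 fold changes between 0.36 and 1.26 and were not called. The median of the 8 members was 1.04, against 0.02 over all genes tested.

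Gbp3 had 35.9, 50.3, 10.1, 31.3 and 42.2 CPM in hippuric acid libraries 1 to 5, against 8.71, 7.03 and 5.74 CPM in the 3 vehicle libraries. All 5 hippuric acid libraries lay above all vehicle libraries, which held for 8.84% of all genes tested, and library 3 stood far below the other 4. The log2 fold change was 2.24 ± 0.47 (edgeR adjusted p = 0.0166). Gbp7 had 30.6, 41.5, 16.4, 28.9 and 33.7 CPM in hippuric acid libraries, against 11.5, 10.9 and 7.31 CPM in vehicle libraries (1.61 ± 0.28, edgeR adjusted p = 0.00525), again without overlap. Irgm2 had 35.2, 45.6, 14.5, 33.4 and 35.9 CPM in hippuric acid libraries, against 18.3, 13.9 and 14.1 CPM in vehicle libraries (1.09 ± 0.31, edgeR adjusted p = 0.0412). Its library 3 fell within the vehicle range and the other 4 lay above it.

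Irgm1 showed the same shape without a call, with 37.0, 47.6, 13.4, 32.8 and 42.3 CPM in hippuric acid libraries, against 19.5, 12.5 and 11 CPM in vehicle libraries (1.26 ± 0.38, edgeR adjusted p = 0.0540). Igtp had 16.7, 20.2, 7.73, 21.8 and 19.8 CPM against 10.8, 6.15 and 9.21 CPM in vehicle libraries (0.98 ± 0.32, adjusted p = 0.0648). Gbp2 had 27.7, 37.3, 16.6, 35.7 and 33.5 CPM against 22.9, 15.3 and 15.1 CPM in vehicle libraries (0.76 ± 0.26, adjusted p = 0.0755). In these 3 genes 4 of 5 hippuric acid libraries exceeded every vehicle library, and library 3 did not. Irf1 (0.36 ± 0.16, adjusted p = 0.151) and Socs1 (0.44 ± 0.19, adjusted p = 0.149) had smaller values, with Socs1 at 5.71, 6.33, 5.19, 4.85 and 6.06 CPM in hippuric acid libraries, against 3.52, 3.92 and 5.04 CPM in vehicle libraries. For Socs1, library 3 was not set apart from the rest of its group.

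Jak2 rose to 63.1 ± 2.84 CPM in hippuric acid skin (n = 5), against 47.2 ± 7.12 CPM in vehicle skin (n = 3; log2 fold change 0.42 ± 0.11, edgeR adjusted p = 0.0283), while Ifngr1 had 0.00 ± 0.19 and was not called. Ifng was at 0 counts in all 8 libraries of both groups, which allows up to 0.202 CPM in a library. Of the signal inhibitors other than Socs1, Socs3 rose (0.67 ± 0.16) and Cish fell (-0.77 ± 0.17), and 6 others were not called. Gbp9 (1.05 ± 0.22), Gbp4 (1.35 ± 0.38), Iigp1 (1.83 ± 0.40) and Gvin2 (1.97 ± 0.51) rose, as did all 12 type I genes. The log2 fold changes of these 12 ran from 1.44 to 3.96 (median 2.31), with Ifit2 (1.44 ± 0.30) at the low end. Of 10 other genes induced by interferon gamma 2 rose, the chemokine Cxcl10 (1.86 ± 0.51) and the adhesion molecule Icam1 (0.45 ± 0.12). Cxcl9, which rose in vitiligo skin, lay at 0.0529 to 0.960 CPM in hippuric acid and 0.587 to 0.946 CPM in vehicle libraries (-1.14 ± 0.71, adjusted p = 0.304).

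None of 8 tested T and NK cell markers was called, with sums of 14.3 to 22 CPM in hippuric acid and 13.2 to 17.8 CPM in vehicle libraries (Ncr1 at 0 in all 3 vehicle libraries), and 1 of 12 macrophage markers was called higher, with sums of 1490 to 1700 and 901 to 1670 CPM. Keratinocyte markers summed to 11700 to 15300 CPM in hippuric acid libraries, against 30000 to 41700 CPM in vehicle libraries, with 4 of 7 called lower, and all 7 adipocyte markers fell (283 to 767 against 1360 to 1780 CPM in sum). Their part in the change of the members was not tested. Without hippuric acid library 3, all 6 GTPases were called (edgeR adjusted p from 0.000454 to 0.0133), while Irgm2 lost its call without any 1 of the other 7 libraries (up to 0.130).

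The vehicle group was also set against no induction skin as a control for the injection. No member was called (edgeR adjusted p = 0.999 for all 8), and no gene of 14175 was called either, with 509 genes (3.59%) at an unadjusted p under 0.05 and 5 genes called by DESeq2, none of them a member. The log2 fold changes of the members lay between -0.05 and 0.25, with 0.25 ± 0.24 (SE) for Gbp2 and 0.21 ± 0.22 for Gbp7. Gbp3, for example, had 8.71, 7.03 and 5.74 CPM in vehicle libraries, against 4.15, 7.05 and 9.42 CPM (lowest, median and highest) in no induction libraries. With 3 vehicle libraries, the absence of calls does not show equal levels. All 7 adipocyte markers had positive log2 fold changes (median 1.04) and all 6 melanocyte markers negative ones (median -0.61), without a call. The comparisons of vitiligo, no induction ABX and vehicle skin all share the 9 no induction libraries.

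The 6 GTPases varied together from library to library. After subtracting each group's mean, the 15 pairs of GTPases had correlations of log2(CPM + 1) between 0.74 and 0.94 (median 0.86) over the 38 libraries. Irf1 correlated with the 6 GTPases at 0.52 to 0.72 (median 0.62), and Socs1 with the other 7 members at -0.18 to 0.19 (median 0.08). The libraries share their sequencing and normalization, and Igtp and Irgm2, like Gbp3 and Gbp7, share stretches of sequence, so these values are given as a description.

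The genes most like the members were themselves interferon responsive. The 8 non-members with the highest correlation to the members' mean z-score over 38 libraries, among 13145 genes, were Rtp4, Iigp1, Parp9, Bst2, Ifi47, Ifitm3, Oasl2 and Parp14, with Pearson's r from 0.91 to 0.93 and Spearman's rho from 0.89 to 0.93. Without the 2 libraries farthest from the median, hippuric acid 2 and 5, r was 0.89 to 0.91, and after subtracting group means it was 0.81 to 0.89. Bst2 encodes tetherin, which holds budding virus at the cell surface, and Ifitm3 a membrane protein that hinders virus entry. They were chosen for this likeness, so no test is given.

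**Figure D4:**
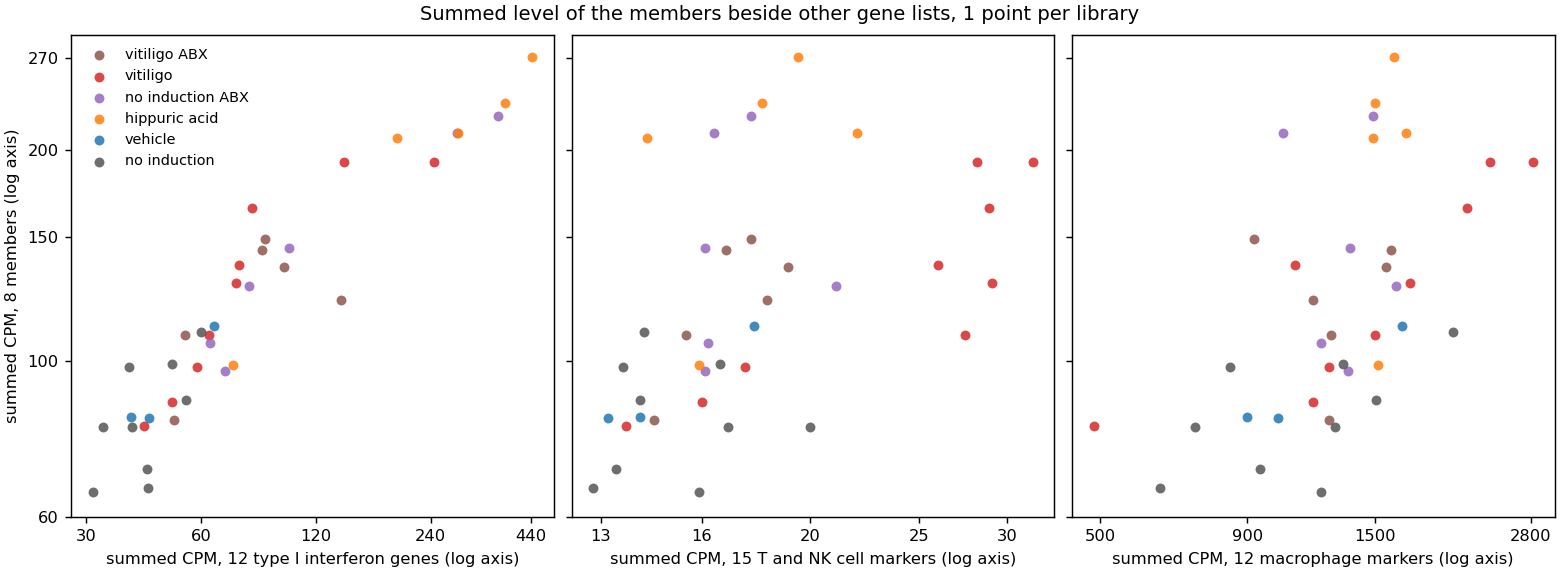
Summed CPM of the 8 members (y axis, log scale) against the summed CPM of 12 type I interferon genes, 15 T and NK cell markers and 12 macrophage markers (x axes, log scale), with 1 point per library coloured by group. On the y axis the members span 65.0 to 110 CPM in no induction and 98.6 to 271 CPM in hippuric acid skin. The vitiligo points reach 245 CPM of type I genes, 31.6 CPM of T and NK cell markers and 2820 CPM of macrophage markers. The hippuric acid points reach 444, 22 and 1700 CPM.

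Some of these genes share sequence with others, which could move counts between them. Of the 50-base stretches in annotated exons, 12.7% in Gbp7 occur elsewhere (in Gm43802, Gbp3 and Gbp11), 11.8% in Igtp (in Irgm2), 7.77% in Irgm2, 3.75% in Gbp3 and 2.03% in Gbp2, against 0.31% in Irgm1 and 0 in Irf1 and Socs1. Igtp and Irgm2 overlap on the same strand, and their deposited values were not whole in 10 and 14 libraries. Gbp7 overlaps Gm43802 on the same strand too, with values that were not whole in 2 libraries. Irf1 overlaps Gm17334 and Gbp2 overlaps Mir6381 on the opposite strand, and reads of such pairs cannot be told apart where strand was not used in counting. The values of Gbp7, Igtp and Irgm2 are therefore the least certain of the set as single genes.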

How the data were processed

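Messenger RNA of tail skin was enriched with oligo(dT) and sequenced on a NovaSeq instrument, per the labels' protocols. Bowtie2 2.2.8, StringTie 1.3.1, HISAT2 and DESeq2 are listed per the submitters' processing notes, with no role. Which program counted reads, on which build and with which strand setting, was not given in the sources used here. The authors deposited 1 table of expected counts per gene with 19220 rows, of which 2 that name no gene were left out. Values were rounded, since 3107 genes (16.2%) held a value that was not whole, which changed a total by at most 22.1 counts.

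Groups came from the treatment in the labels. Each pairwise comparison was fitted on the whole table in edgeR 4.0.16 (R 4.3.3, limma 3.58.1) with TMM factors, the default filter on low counts and the robust quasi-likelihood F test, with two-sided p-values adjusted by Benjamini-Hochberg over all genes tested. The interaction was fitted on 4 groups. SE were derived from the F statistic. Alternatives were RLE factors, no filter, DESeq2 1.42.0, 1 fit of all 38 libraries, a replicate block and leaving out each library, and 2 sets of libraries left out after seeing the data. The members, the gene lists (receptor and kinases, transcription regulators, signal inhibitors, other GTPases, genes induced by interferon gamma, type I genes and cell markers) and the rule for other genes named, up to 4 per list with the smallest p, were chosen with earlier results of these data known. A gene of the receptor and kinase list is not reported here. Exon lengths, overlaps and shared stretches came from GENCODE M21. The fit was tested on simulated counts. Replicates of a group all differed by more than sampling noise (chi-square over degrees of freedom 7.33 or more).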

Additional observations from a re-analysis of the deposited data

Results flagged for a closer look

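Single libraries that stood far from the rest of their group were looked for in 85 sets of libraries of 1 group (members, pathway genes and marker sums), and 10 were found. The cutoff gives about 5%, or 1 in 20, for normally distributed values. Whether these CPM values are so distributed was not tested, and many sets vary together, so the count is not read against that rate. Irf1 was at 28.2 CPM in vitiligo ABX 003, against 18.3 to 21 CPM in the other 5 libraries. Gbp2 was at 25.4 CPM in no induction 005, against 10.1 to 17.8 CPM in the other 8, and this library set the overlap with no induction ABX skin. Ifngr1 was at 43.4 CPM in vitiligo 001, against 73.5 to 99.3 CPM in the other 8.

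Cxcl9 had such a library in 4 groups. It was at 8.58 CPM in vitiligo ABX 003 (0.398 to 1.03 in the others), at 12.4 CPM in vitiligo 047 (0.638 to 5.41), at 0.939 CPM in no induction ABX 004 (0.188 to 0.327) and at 2.24 CPM in no induction 022 (0.323 to 0.804). The summed type I interferon genes reached 245 CPM in vitiligo 000 (42.4 to 142 in the others). Summed T and NK cell markers reached 21.1 CPM in no induction ABX 005 (16.1 to 17.7 in the others), and summed gut epithelium markers 38.4 CPM in vitiligo 260 (4.64 to 14.3 in the others).

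The effect of ABX differed between induced and uninduced mice for Gbp2, Gbp3 and Gbp7, by -1.43, -1.92 and -1.50 on the log2 scale (with induction minus without, by the interaction term). Without no induction ABX 002 and 004 together, Gbp7 alone was called.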

How the results depend on the processing

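Over the 8 members and all comparisons, 808 of 880 values from leaving out 1 library kept direction and side of the threshold (27 weaker, 14 stronger, 31 reversed), as did 285 of 320 under other settings (19, 7 and 9). Leaving out each library gave 2 to 7 members called in vitiligo (4 with all libraries), 5 to 6 in no induction ABX (6), 2 to 6 in hippuric acid skin (3) and 3 to 4 for the interaction (3), and 0 in the other 3 comparisons. The count was 1 in vitiligo skin without the gut transcript libraries and 0 in no induction ABX skin with the replicate block, which keeps only the libraries whose numbers both groups share, fewer than the full fit. It was 3 in no induction ABX skin and 1 for the interaction without no induction ABX 002 and 004 together, 6 by DESeq2 and 5 with all 38 libraries in hippuric acid skin, and 1 by DESeq2 between vitiligo ABX and no induction ABX. Between vitiligo ABX and vitiligo the shared numbers were 1 and 6 only, so the block there rested on libraries 001 and 006 of each group. Whether the numbers pair the libraries is not stated in the labels. Deviations from group means correlated at -0.2 to 0.38 between same-numbered libraries, which does not decide it. The cause of these moves was not tested. The genes called of all tested changed by more than 1.5 times in vitiligo (1070 with the settings reported, 1769 by DESeq2, 1683 with all 38 libraries), vitiligo ABX against vitiligo (1837, against 2811 with all 38 and 64 with the block), no induction ABX (4351, against 1436 with the block and 2602 without 002 and 004), vitiligo ABX against no induction ABX (689, against 1290 by DESeq2), hippuric acid (1940, against 879 with the block), vehicle (0, against 5 by DESeq2 and 2 with the block or without gut transcript libraries) and the interaction (1639, against 820 without 002 and 004). Leaving out 1 library moved these counts by more than 1.5 times as well, and the shares of all genes given beside the members rest on them. In vitiligo the count was 711, 700, 688 and 1625 without no induction 021, 022, 023 and 005, and 1634 and 2571 without vitiligo 062 and 001. In vitiligo ABX against vitiligo it was 1183 and 1215 without vitiligo ABX 004 and 005 and 2803 without vitiligo 001. In vitiligo ABX against no induction ABX it was 359, 375 and 415 without vitiligo ABX 001, 002 and 004 and 228, 290 and 353 without no induction ABX 002, 004 and 005. In hippuric acid skin it was 1217, 1149 and 1214 without hippuric acid 1, 3 and 4, in vehicle skin 2 without vehicle 001, and for the interaction 2679 without vitiligo 001. No single library moved the count in no induction ABX that far (3431 to 4732).

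Reversed values, all uncalled, were: with the block, Gbp2 0.37, Gbp3 0.86, Gbp7 0.32 and Socs1 -0.28 in vitiligo ABX against vitiligo, Irf1 -0.01 in no induction ABX, Irgm2 0.00 in vitiligo ABX against no induction ABX, and Irf1 0.02 in vehicle; without gut transcript libraries, Socs1 -0.07 in vitiligo and 0.09 in the interaction. Leaving out 1 library gave, in vitiligo ABX against vitiligo, Irf1 -0.03 to 0.13, Gbp7 -0.23 to 0.03, Igtp -0.09 to 0.16, Irgm1 -0.01 to 0.15 and Socs1 -0.05 to 0.16. In vitiligo ABX against no induction ABX it gave Igtp -0.19 to 0.09, Irgm2 -0.20 to 0.10 and Socs1 -0.10 to 0.13. In vehicle against no induction it gave Irf1 -0.14 to 0.04, Gbp3 -0.12 to 0.19, Igtp -0.02 to 0.36, Irgm1 -0.08 to 0.37 and Socs1 -0.08 to 0.19, and for the interaction Socs1 -0.19 to 0.03.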

Other observations

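The balance of Gbp3 to Gbp2 is given as a description with no test, since the pair was chosen after the values were seen. The log2 ratio of their CPM was -0.48 ± 0.37 in no induction ABX (SD, n = 6) and -1.11 ± 0.28 in no induction skin (n = 9), a difference of 0.63. In no induction ABX libraries 002 and 004 the ratio was -0.15 and 0.06, against -0.88 to -0.52 in the other 4, and without these 2 libraries the difference was 0.42. The ratio was 0.05 ± 0.49 in hippuric acid (n = 5) and -1.30 ± 0.16 in vehicle skin (n = 3), a difference of 1.35. It was -1.30 ± 0.30 in vitiligo and -1.11 ± 0.28 in no induction skin (n = 9 each), a difference of -0.19. Between vitiligo ABX (-1.05 ± 0.27) and no induction ABX skin (-0.48 ± 0.37, n = 6 each) the difference was -0.57, and -0.35 without the same 2 libraries. It was 0.25 for vitiligo ABX against vitiligo and -0.19 for vehicle against no induction skin.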
